A study of Mus musculus with 4 samples.

Results

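Collagens, laminin chains and integrins were described in bulk RNA sequencing of the embryonic mouse cortex. Members were the protein coding genes of the count table whose symbol has the form of a collagen chain (Col, a number, a, a number), a laminin chain (Lama, Lamb or Lamc and a number) or an integrin subunit (Itga or Itgb). This rule took 83 of 26433 genes, of which 16867 are protein coding. They were 43 collagen chains, 11 laminin chains and 29 genes whose symbol starts with Itga or Itgb. Of the last, 25 encode integrin subunits, 17 alpha and 8 beta, and the other 4 (Itgb1bp1, Itgb1bp2, Itgb3bp and Itgbl1) carry the name without being subunits.

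The study expressed human SERPINA3, a serpin, in the neural progenitors of mice and asked which genes changed in the cortex at E15. In cKI f/+ mice the human gene sits in the Rosa26 locus under the CAG promoter, behind a floxed stop cassette that Nestin-Cre removes in Nestin-positive cells and in the cells that arise from them. WT littermates were the controls, and total RNA of E15 telencephalic tissue, labelled cerebral cortex of strain C57BL/6, was sequenced on an Illumina HiSeq instrument. Founders had been bred with B6D2F2 mice before the cross to Nestin-Cre mice on a C57BL/6 background, so the embryos need not be of a single strain, and expression from CAG may exceed a physiological level. The human transgene was not analysed here.

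There were 2 cKI f/+ libraries, KI2 and KI3, and 2 WT libraries, WT1 and WT3, with 17423512 to 18119444 counted reads each. The labels speak of triplicates, and 4 libraries were analysed here. Nothing in the labels says how many animals a library holds, so p-values measure only the spread between these libraries, which may be partly technical. The libraries of a genotype were not copies of each other, with a chi-square per degree of freedom of 5.63 for cKI f/+ and 7.49 for WT. Embryo sex went with genotype: Xist, the RNA of the inactive X chromosome, had 13223 and 11882 reads in KI2 and KI3 against 5 in each WT library, and the Y-linked Kdm5d had 0 and 0 against 951 and 918. Sex and genotype therefore cannot be told apart for any difference given below. Only 3 members lie on chromosome X (Col4a5, Col4a6 and Itgb1bp2), with log2 fold changes of 0.05, 0.06 and 0.09, and none lies on Y. The tissue held the markers its label calls for, with 11 radial glia markers that sum to 2542 to 2731 CPM (counts divided by the library total and scaled) and 9 neuronal markers to between 6244 and 7022. The neuronal sum was 6742 and 6244 in KI2 and KI3, below both WT libraries at 6860 and 7022.

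Collagens are triple helices built in the endoplasmic reticulum and secreted into the matrix. Fibrillar types form the fibrils of connective tissue, whereas type IV forms the sheet of basement membranes. Laminins are trimers of an alpha, a beta and a gamma chain that begin basement membrane assembly, and integrins are alpha and beta pairs that hold cells to both. In the developing cortex, radial glia attach by their end feet to the pial basement membrane, which meningeal fibroblasts help to make, and the vessels that grow into the cortex carry a basement membrane of their own.

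The highest levels were those of a few receptor and basement membrane genes and of the collagens Col2a1 and Col9a3. Counts were divided by library size and, to compare genes with each other, by the merged exon length of each gene, giving CPM per kilobase. Itgb1, the beta subunit shared by most matrix-binding integrins, stood first at 34.7 ± 3.2 CPM per kilobase (SD, n = 4). It had 2542 and 2444 counts in KI2 and KI3 against 2805 and 2253 in WT1 and WT3, so that the genotypes overlapped. Next on this scale came Col2a1, the fibrillar chain of type II collagen, at 13.8 ± 1.6, followed by the type IV chains Col4a1 at 11.8 ± 0.5 and Col4a2 at 11.2 ± 0.7 (SD, n = 4). Neighbours among these 3 overlapped between libraries, while Col2a1 lay above Col4a2 in all 4. Lamb2 had 9.47 CPM per kilobase, Col18a1, the source of endostatin, 7.98, Lamc1 6.76, Col9a3 5.99, Itga6 5.34 and Lamb1 4.37. These 10 genes were also the first 10 when the length of the longest protein coding transcript was used (10 of 10 shared). On the CPM scale 25 of the 83 members reached a mean of 10 CPM, 33 lay between 1 and 10, and 25 lay under 1.

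**Figure D1:**
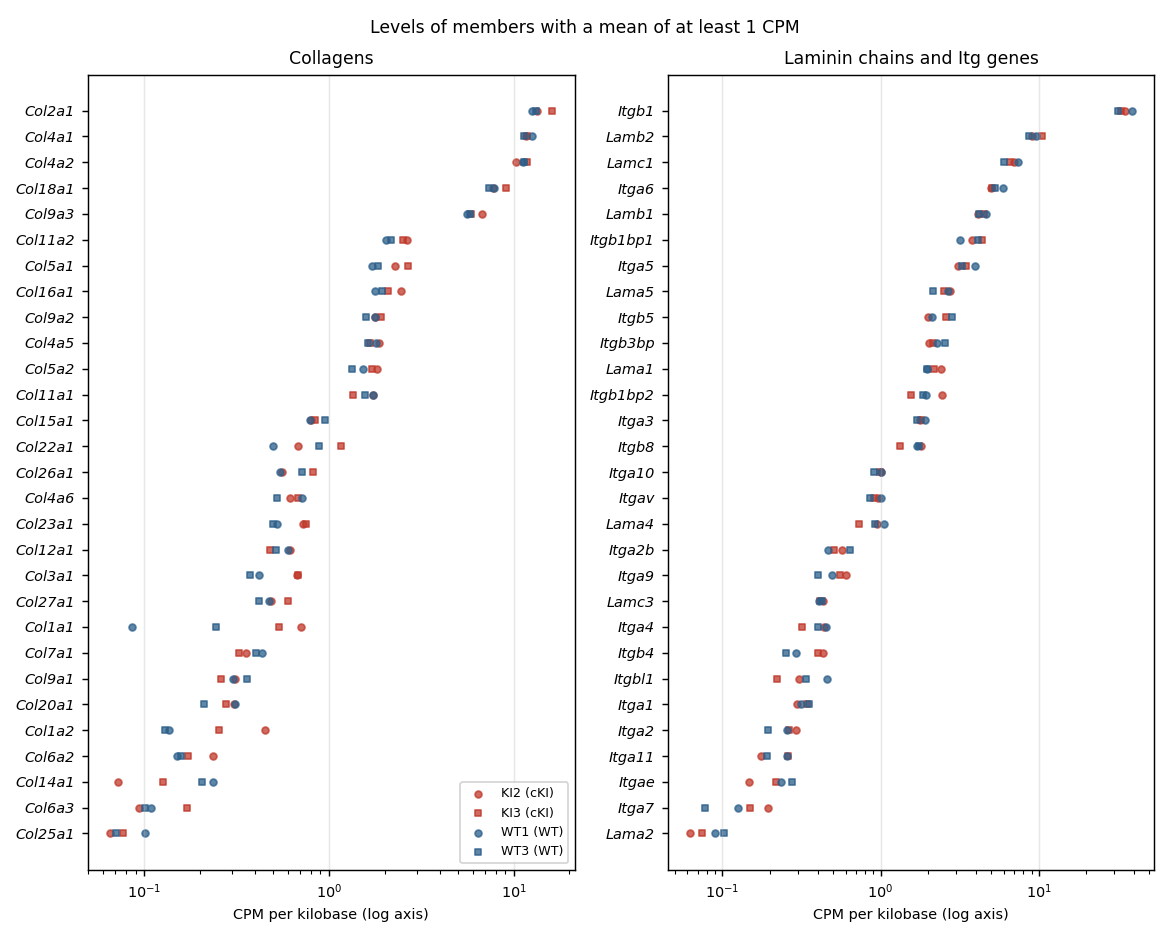
Levels of the members with a mean of at least 1 CPM, in CPM per kilobase on a log axis, collagens on the left and laminin chains and Itg genes on the right, with a point per library (red for cKI f/+, blue for WT). Itgb1 stands at 34.7 CPM per kilobase and most other members lie under 10, and the spread over libraries relative to the mean is widest for Col1a1 and Col1a2.

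The ratio of Col4a1 to Col4a2, which are secreted together, lay between 0.992 and 1.13 per kilobase in the 4 libraries. These genes lie head to head on chromosome 8, Col4a1 from 11198423 to 11312826 on the minus strand and Col4a2 from 11312805 to 11449287 on the plus strand (GRCm38), and their first exons overlap. The shared stretch, 22 bases at chr8:11312805-11312826 of GRCm38.p6, is shown on the plus strand because it marks where the paired genes begin and where a read cannot be given to either gene without its strand.
Col4a1 and Col4a2 starts: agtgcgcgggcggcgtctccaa
Lamb2 exceeded Lamb1 by a ratio of 2.05 to 2.32 per kilobase in every library, and Lama5 exceeded Lama1 by 1.09 to 1.36. Itgb1 made up 85.8% to 90.0% of the summed level of the 8 beta subunits. Itga6, a laminin receptor subunit of radial glia, exceeded Itga5, the fibronectin receptor subunit, by a ratio of 1.47 to 1.63. The size of these ratios depended on the length used. By the longest protein coding transcript, mean CPM per kilobase was 10.2 for Lamb2 and 7.49 for Lamb1. It was 11.2 for Itga6 and 3.88 for Itga5. In none of these ratios did both cKI f/+ libraries lie on one side of both WT libraries except Lamb2 to Lamb1, at 2.21 and 2.32 in KI2 and KI3 against 2.05 and 2.09.

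The members were separated by the cells that commonly express them. A progenitor list held 7 genes (Itgb1, Itga6, Itgav, Itgb5, Itgb8, Lamb1 and Lamc1), a vascular list 8 (Col4a1, Col4a2, Col15a1, Col18a1, Lama4, Lama5, Lamb2 and Itga1) and a meningeal fibroblast list 14 (Col1a1, Col1a2, Col3a1, Col5a1, Col5a2, Col6a1, Col6a2, Col6a3, Col8a1, Col8a2, Col12a1, Col14a1, Lama1 and Lama2). The median level was 4.37 CPM per kilobase in the progenitor list and 5.24 in the vascular list, and 0.211 in the fibroblast list. All 7 progenitor members and all 8 vascular members had a mean above 1 CPM, with 6 of each at 10 CPM or more. Of the 14 fibroblast members, 3 reached 10 CPM (Col5a1, Col5a2 and Lama1) and 3 lay under 1 CPM. The 9 integrin genes of leukocytes and platelets found in the table had a median of 0.119 CPM per kilobase. The ranges of the lists overlapped, from 0.935 to 34.7 CPM per kilobase for progenitor, 0.326 to 11.8 for vascular and 0.0126 to 2.12 for fibroblast members, so level alone did not place a gene in a list. Many of these genes are used by several cell types, and in bulk tissue fewer cells of a type and less RNA per cell cannot be told apart.

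Between cKI f/+ and WT cortices no member was called. Of the 83 members, 68 had enough reads to be tested with edgeR's quasi-likelihood test, and 0 passed an adjusted p of 0.05 over all 15786 genes tested, against 0.12% of all genes. The lowest adjusted p of a member was 0.400. DESeq2 also called 0 members, and edgeR's likelihood ratio test called 2, Col1a1 and Col1a2. At an unadjusted p under 0.05 there were 9 members, or 13.2% of those tested, against 4.6% of all genes. Of these 9, 8 were higher in cKI f/+ cortices, where 2.26% of all genes were, and 1 was lower, where 2.34% of all genes were. Of the 8 that were higher, 7 are collagens and the other is Itgb4.

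Over the 68 tested members, 39 log2 fold changes were above 0 and 29 below, with a median of 0.06 where that of all genes was 0.00. Both cKI f/+ libraries lay above both WT libraries in 19 members, where 17.3% of all genes did so, and below them in 9, where 16.9% did. The median absolute log2 difference of the members was 0.20 between genotypes, 0.21 within cKI f/+ and 0.19 within WT. The difference between genotypes exceeded both of the within-genotype differences in 18 of 68 members, a share that was not computed for all genes. With 2 libraries per genotype, an exact permutation of the labels of 1 gene cannot give a two-sided p below 0.3333, so the p-values given here rest on the spread that edgeR shares over genes.

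**Figure D2:**
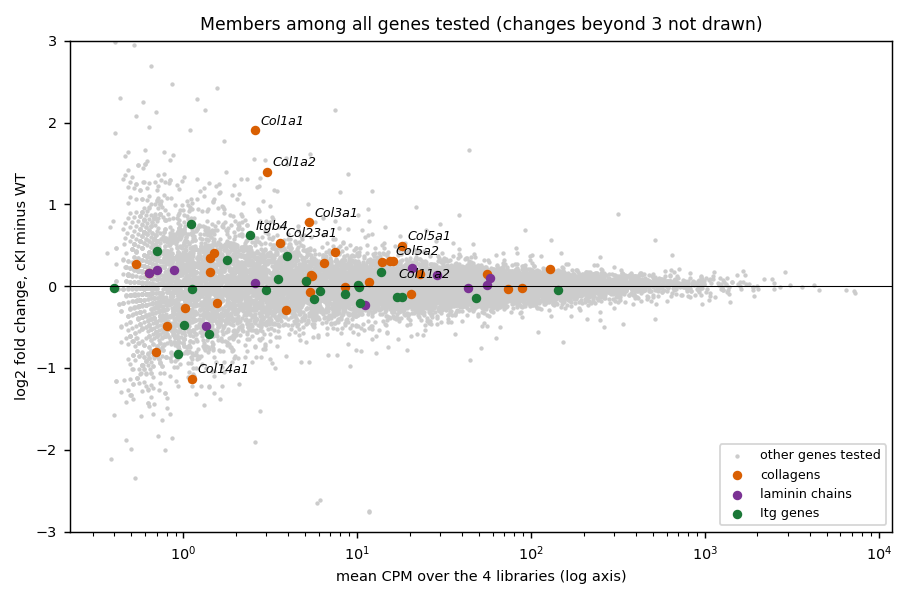
Log2 fold change between cKI f/+ and WT cortices (vertical axis) against mean CPM over the 4 libraries (horizontal log axis) for all genes tested, with collagens in orange, laminin chains in purple and Itg genes in green. The members at an unadjusted p under 0.05 are named, Col1a1 lies highest at 1.91 and Col14a1 lowest at -1.13, and 22 other genes lie beyond the vertical axis.

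Among the 68 tested members, the largest positive log2 fold changes were those of the fibrillar collagens Col1a1, Col1a2 and Col3a1. Col1a1 and Col1a2, the chains of type I collagen, lie on chromosome 11 (94936224 to 94953042) and chromosome 6 (4504814 to 4541544). Col1a1 had 82 and 64 counts in KI2 and KI3, against 10 in WT1 and 28 in WT3. Both cKI f/+ libraries lay above both WT libraries, but WT1 and WT3 were themselves far apart. After TMM normalization its level was 4.09 ± 0.79 CPM in cKI f/+ and 1.09 ± 0.74 CPM in WT (SD, n = 2 each). The log2 fold change was 1.91 (SE 0.409, 95% interval 0.99 to 2.83), with an adjusted p of 0.400 under the quasi-likelihood test of edgeR. Col1a2 had 99 and 57 counts in KI2 and KI3 against 30 in WT1 and 28 in WT3, or 4.38 ± 1.75 against 1.65 ± 0.07 CPM (SD, n = 2 each). Here it was the cKI f/+ libraries that differed from each other. Its log2 fold change was 1.40 (SE 0.328, 95% interval 0.66 to 2.14), with an adjusted p of 0.573 by the same test. The ratio of Col1a1 to Col1a2 per kilobase was uneven, at 0.631 in WT1 and between 1.57 and 2.13 in the other libraries. Which chain stood higher depended on the length used. By merged exon length, mean CPM per kilobase was 0.393 for Col1a1 and 0.242 for Col1a2. By the longest protein coding transcript it was 0.436 and 0.563.

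Single libraries decided whether the type I chains were called. Without KI3, edgeR called both, with log2 fold changes of 2.09 for Col1a1 (adjusted p = 0.0377) and 1.76 for Col1a2 (adjusted p = 0.0116). Without WT3 it called Col1a1 alone, at 2.84 (adjusted p = 0.00823). Without KI2 or WT1 neither was called, with Col1a1 at 1.69 and 1.34 and Col1a2 at 0.91 and 1.44. These fits take the spread of the lone library from the other group, and they called 46 to 71 genes in all where the 4 libraries gave 19.

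Col3a1, the chain of type III collagen that forms fibrils with type I, had 117 and 121 counts in KI2 and KI3 and 72 and 64 in WT1 and WT3. The libraries of each genotype lay close together and apart from those of the other. Its log2 fold change was 0.78 (SE 0.198, 95% interval 0.33 to 1.23), with an adjusted p of 0.667 under the same edgeR test. Set against Col4a1 per kilobase, Col3a1 stood at 0.0581 and 0.0578 in KI2 and KI3 and at 0.0332 and 0.0331 in WT1 and WT3. Col5a1, a chain of type V collagen, which starts and sizes type I fibrils, had 342 and 414 counts in KI2 and KI3 against 255 and 271 in WT1 and WT3. No WT library reached either cKI f/+ library, and the log2 fold change was 0.49 (SE 0.133, adjusted p = 0.773 by the same test). Its partner chain Col5a2 had 310 and 297 counts against 259 and 222, a log2 fold change of 0.31 (95% interval 0.00 to 0.62). Col3a1 and Col5a2 lie tail to tail on chromosome 1, from 45311538 to 45349706 on the plus strand and from 45374321 to 45503282 on the minus strand.

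The 100 bases before the annotated starts of Col3a1 and Col5a1 are shown, and they are credited to RefSeq, GRCm38.p6. These chains differed in the same direction with separate libraries, as did others not shown, among them Col1a2, Col5a2 and Col11a2. Genes were picked by name, windows that overlap a GENCODE M21 exon were left out, and those of Col3a1 and Col5a1 remained. Both lie on the plus strand, Col3a1 at chr1:45311438-45311537 and Col5a1 at chr2:27886325-27886424, and capitals mark a match on either strand to any of 3 promoter motifs. The motifs searched were TATAAA, known as the TATA box, the pentamer CCAAT, where NF-Y binds, and GGGCGG, known as the GC box.
Col3a1: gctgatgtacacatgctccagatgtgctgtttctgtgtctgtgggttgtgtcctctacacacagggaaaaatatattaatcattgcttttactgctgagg
Col5a1: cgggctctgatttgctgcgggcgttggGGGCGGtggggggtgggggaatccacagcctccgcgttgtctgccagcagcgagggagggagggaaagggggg
Col5a1 holds a GC box on the plus strand and Col3a1 holds none of the 3 motifs in this window. Of 32851 promoters in the RefSeq table, 24.7% hold a GC box in the 100 bases before the start, 18.9% the pentamer and 5.56% a TATA box. A promoter entry was found for 60 of the 83 members, without Col1a1, Col5a2 and Col14a1.

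Col11a2, a chain of type XI collagen on chromosome 17, had 324 and 313 counts in KI2 and KI3 and 246 and 261 in WT1 and WT3. Again the genotypes did not overlap, with a log2 fold change of 0.30 (SE 0.127, adjusted p = 0.969 in edgeR). Col2a1, the most abundant collagen, had 2188 and 2707 counts in KI2 and KI3 against 2033 and 2129 in WT1 and WT3. KI2 lay close to the WT libraries and KI3 above them, with a log2 fold change of 0.20 (95% interval -0.02 to 0.42). Col11a1, which pairs with Col11a2, had 391 and 311 counts against 389 and 348, and its genotypes overlapped. Col27a1 had 112 and 141 counts against 109 and 95, and Col24a1 5 and 19 against 11 and 10. Over the 11 fibrillar chains, 10 were tested and 9 had a log2 fold change above 0. At an unadjusted p under 0.05 there were 6, all higher in cKI f/+, where 2.26% of all genes were. All of these but Col11a2 are also in the fibroblast list, so the counts of both lists share genes. Among the 10 the median log2 fold change was 0.31. Both cKI f/+ libraries lay above both WT libraries in 8 of the 10, where 17.3% of all genes did so. The chain that was not tested, Col5a3, had 7 counts or fewer in every library.

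**Figure D3:**
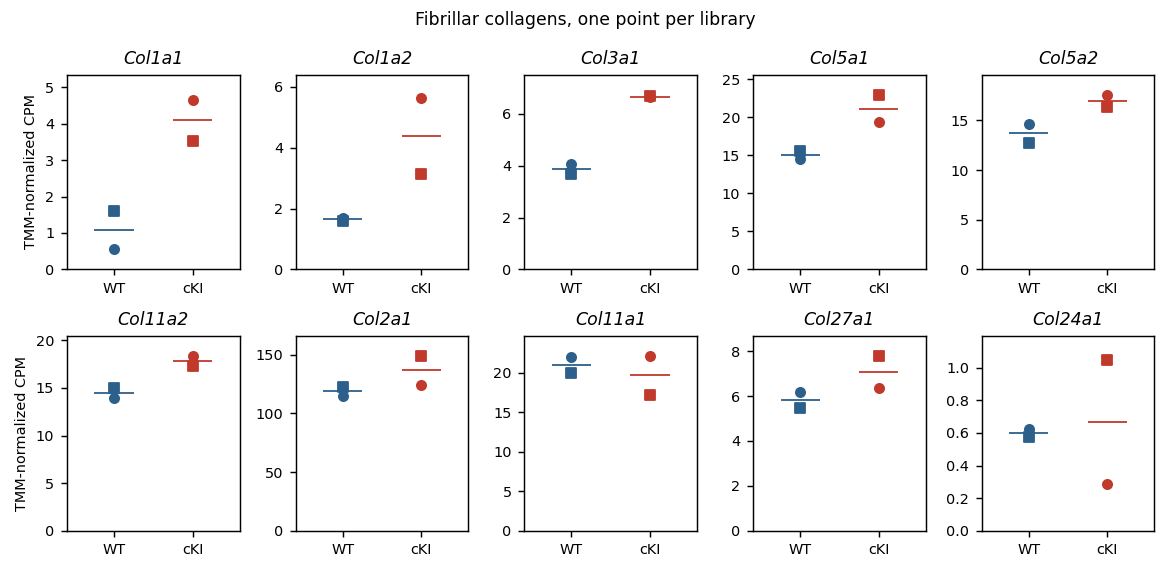
TMM-normalized CPM of the 10 tested fibrillar collagens, with a point per library, a line at each genotype's mean (n = 2) and vertical axes that start at 0 and differ between panels. Col3a1, Col5a1, Col5a2 and Col11a2 do not overlap between genotypes, Col1a1 and Col1a2 do not either but spread widely within one of them, and Col11a1 and Col24a1 overlap.

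The remaining members of the fibroblast list had differences in both directions. Col14a1, a collagen that sits on the surface of type I fibrils, had 9 and 16 counts in KI2 and KI3 and 29 and 25 in WT1 and WT3. It was the only member lower in cKI f/+ at an unadjusted p under 0.05, with a log2 fold change of -1.13 (SE 0.411, adjusted p = 0.969 in edgeR). Lama2, a laminin alpha chain of muscle and of brain vessels, had 18 and 22 counts in KI2 and KI3 against 26 and 29, a log2 fold change of -0.49 with separate libraries. Col12a1, which also binds fibrils, had 167 and 133 counts against 161 and 137, with full overlap. Lama1, the alpha chain of embryonic basement membranes and of the pial surface, had 411 and 381 counts in KI2 and KI3 against 334 and 331. Its libraries were separate, with a log2 fold change of 0.23 (95% interval -0.04 to 0.49). Type VI collagen, which forms beaded filaments around cells, was scarce: Col6a2 had 35 and 26 counts against 22 and 23, and Col6a3 20 and 37 against 23 and 21. Col6a1, too low to test, had 10 and 10 counts in KI2 and KI3 against 2 and 2, and Col8a2 had 10 and 14 against 0 and 3. Counts of 3 correspond to 0.166 to 0.172 CPM and were taken as the floor of detection, which covers counting error only.

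In the fibroblast list as a whole, 11 of 14 members were tested, 8 had a log2 fold change above 0, and the median was 0.34. At an unadjusted p under 0.05, 5 were higher and 1 lower, where 2.26% and 2.34% of all genes were. The 5 that were higher are fibrillar chains already counted above. The list was chosen with earlier results of these data known, so these counts describe it and do not test it. The summed level of its 14 members was 92.0 and 88.0 CPM in KI2 and KI3 against 69.5 and 68.1 CPM in WT1 and WT3, so both cKI f/+ libraries lay above both WT libraries. The 57 tested members outside this list had a median log2 fold change of 0.04, with 3 higher and 0 lower at an unadjusted p under 0.05. In either direction this was 5.26% of the 57, against 4.6% of all genes.

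Markers of other cells are given beside these values. Of 17 meningeal fibroblast markers 11 were tested, and 3 had an unadjusted p under 0.05, all higher in cKI f/+: Dcn, which encodes the collagen-binding proteoglycan decorin (50 and 69 counts against 11 and 36), Igf2 (851 and 955 against 663 and 795) and Crabp2 (82 and 134 against 69 and 68). Of the 11 tested, 6 had a log2 fold change above 0 and 5 below, with a median of 0.21 and a range of -0.49 (Foxc1) to 1.30 (Dcn). The summed level of the 17 overlapped, at 170 and 211 CPM in KI2 and KI3 against 167 and 180. The 6 that were not tested (Lum, Aldh1a2, Twist1, Slc6a13, Gjb2 and Gjb6) had 9 counts or fewer in every library and together 29 and 25 counts in KI2 and KI3 against 2 and 13 in WT1 and WT3, so that both cKI f/+ libraries lay above both WT libraries. The summed level of 7 choroid plexus markers was higher in KI3 than in all other libraries. It was 10.4 and 67.6 CPM in KI2 and KI3 against 2.38 and 4.71 in WT1 and WT3. Among these markers Ttr had 116 counts in KI2 and 956 in KI3 against 0 and 4 in WT1 and WT3. All 5 choroid plexus markers tested had a log2 fold change above 0, and 3 an unadjusted p under 0.05. The part of meningeal fibroblasts and choroid plexus in the collagen values was not tested. Without KI3, the library with the most Ttr, the median log2 fold change of the fibroblast list was 0.35. KI2 stayed in that fit and also had more Ttr than both WT libraries, so the fit cannot decide what part choroid plexus has.

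**Figure D4:**
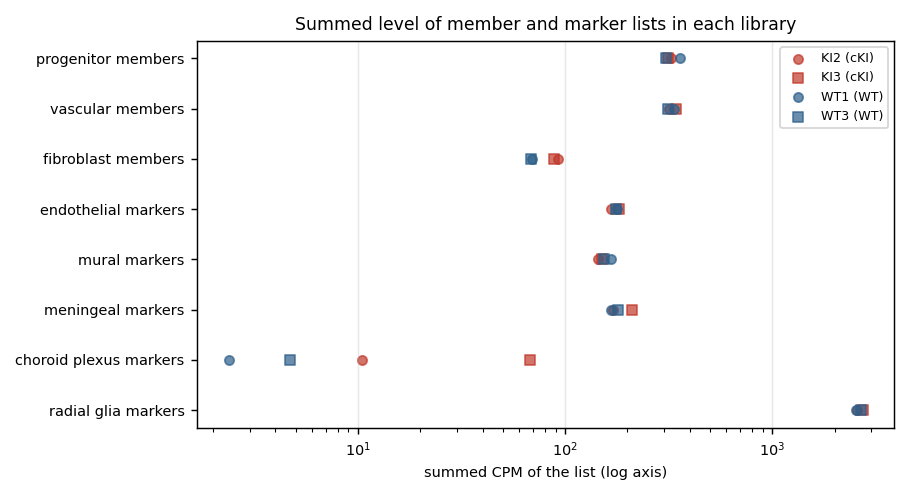
Summed CPM (log axis) of the progenitor, vascular and fibroblast members and of marker lists for endothelial, mural, meningeal, choroid plexus and radial glial cells, with a point per library (red for cKI f/+, blue for WT). The fibroblast members are at 92.0 and 88.0 CPM in KI2 and KI3 and at 69.5 and 68.1 in WT1 and WT3. The choroid plexus markers range from 2.38 to 67.6. The mural markers are at 144 and 151 in KI2 and KI3, below both WT libraries at 167 and 153. The other lists drawn overlap between genotypes.

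No gene of the vascular basement membrane list passed the test. Col4a1 had 1532 and 1591 counts in KI2 and KI3 and 1651 and 1469 in WT1 and WT3, and the genotypes overlapped, with a log2 fold change of -0.03 (95% interval -0.21 to 0.16). Col4a2 had 1203 and 1412 counts against 1310 and 1313, a log2 fold change of -0.03 (95% interval -0.24 to 0.17). Lamb2 had 984 and 1152 counts against 1024 and 926, and Lama4, the alpha chain of endothelial laminins, 202 and 160 against 225 and 194. Lama5 had 555 and 518 counts in KI2 and KI3 against 533 and 424, and only WT3 stood low. Col18a1 was the vascular member whose libraries were separate, with 964 and 1147 counts against 965 and 898, a log2 fold change of 0.15 (95% interval -0.07 to 0.38); the separation rests on scaling, since KI2 and WT1 differ by 1 count. Col15a1, related to Col18a1, and Itga1, a collagen receptor subunit of vessels, overlapped, with log2 fold changes of -0.07 and -0.06. None of the 8 had an unadjusted p under 0.05, their median was -0.03, and their sum was 317 and 342 CPM in KI2 and KI3 against 335 and 312. Of 13 endothelial markers none had an unadjusted p under 0.05, and they summed to 166 to 182 CPM. Among 8 tested mural markers 1 did, the pericyte gene Rgs5 (log2 fold change -0.40, adjusted p = 0.667 in edgeR). Rgs5 had 524 and 495 counts in KI2 and KI3 against 672 and 648. The mural list summed to 144 and 151 CPM in KI2 and KI3, below both WT libraries at 167 and 153. Of the 8, 6 had a log2 fold change below 0, 5 of them with separate libraries (Pdgfrb, Rgs5, Kcnj8, Abcc9 and Vtn), and the median was -0.19. The part of mural cells in the vascular values was not tested.

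The progenitor members showed the narrowest range of the 3 lists, with log2 fold changes from -0.15 to 0.02 and a median of -0.05. Itgb1 had a log2 fold change of -0.05 (95% interval -0.28 to 0.19). Itga6 had 804 and 832 counts in KI2 and KI3 against 945 and 837, and its libraries were separate by a small margin, with a log2 fold change of -0.15 (95% interval -0.36 to 0.06). The αv integrins, which bind vitronectin and fibronectin and activate latent TGF-β, were represented by Itgav with 184 and 177 counts against 190 and 161, Itgb5 with 126 and 167 against 132 and 174, and Itgb8 with 353 and 264 against 331 and 336. All 3 overlapped between genotypes, and in each the spread within cKI f/+ was wider than the difference between genotypes. Lamb1 had 727 and 811 counts against 813 and 721, and Lamc1, the gamma chain of most laminins, 1027 and 987 against 1085 and 868. The sum of the 7 members was 325 and 314 CPM in KI2 and KI3 against 358 and 307, so WT1 was highest and WT3 lowest. The 95% intervals of the log2 fold change of all 7 include 0, and the widest was that of Itgb5, at -0.56 to 0.37. Of 11 radial glia markers, 1 had an unadjusted p under 0.05, Emx2 at 1472 and 1485 counts against 1250 and 1304, and of 9 neuronal markers all had a log2 fold change below 0 and none an unadjusted p under 0.05.

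**Figure D5:**
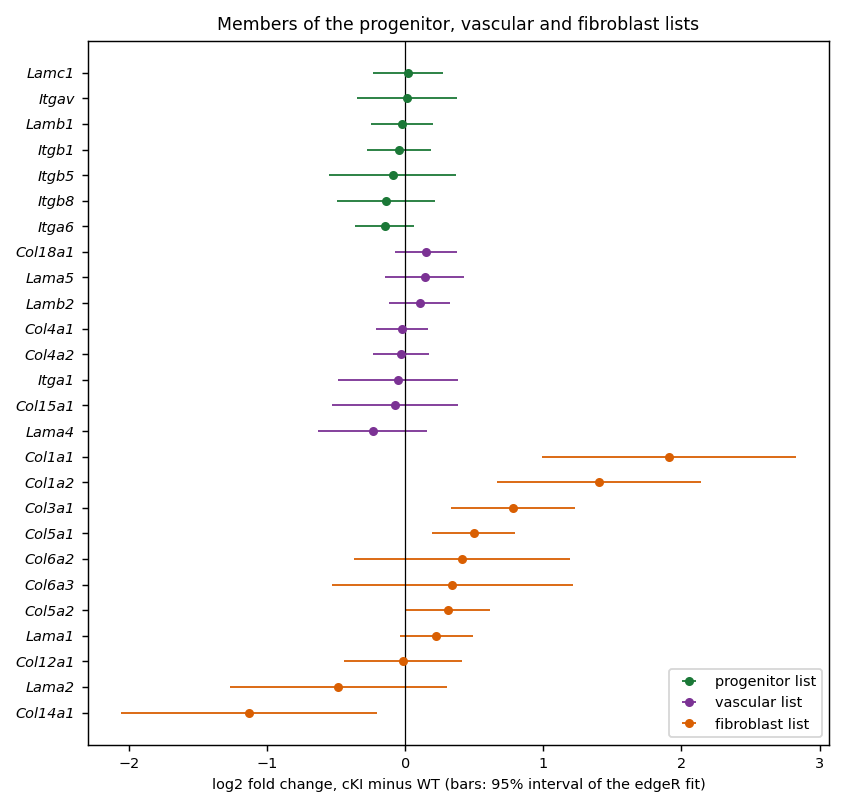
Log2 fold change between cKI f/+ and WT cortices with its 95% interval from edgeR, for the tested members of the progenitor (green), vascular (purple) and fibroblast (orange) lists. Intervals of all progenitor and vascular members include 0, and those of Col1a1, Col1a2, Col3a1, Col5a1, Col5a2 and Col14a1 do not.

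Other laminin chains and receptors gave 1 further member at an unadjusted p under 0.05. Itgb4, which pairs with Itga6 as a laminin receptor of epithelia, had 54 and 51 counts in KI2 and KI3 and 36 and 31 in WT1 and WT3. Its genotypes did not overlap, and the log2 fold change was 0.62 (SE 0.270, adjusted p = 0.969 in edgeR). Itga7, another laminin receptor subunit, had 28 and 22 counts against 18 and 11 (log2 fold change 0.76, 95% interval -0.17 to 1.68), whereas Itga3, the third of this kind, had 181 and 186 against 193 and 169. Itga8, which binds nephronectin, had 15 and 9 counts in KI2 and KI3 against 24 and 18, a log2 fold change of -0.83 with separate libraries. Lama3 and Lamb3, laminin chains of epithelia, were scarce, at 9 to 15 and 9 to 14 counts, and their genotypes overlapped. Lamc3 had 47 and 46 counts against 44 and 45. Over the 11 laminin chains, 8 log2 fold changes were above 0, none had an unadjusted p under 0.05, and the range was -0.49 to 0.23. Of the integrin subunits of leukocytes and platelets, Itga4 had 109 and 81 counts in KI2 and KI3 against 111 and 98, and Itga2b 55 and 50 against 45 and 61. Several others were scarce: Itgb2 had 8 and 9 counts in KI2 and KI3 against 3 and 12, Itgb7 9 and 4 against 2 and 7, Itgb6, an epithelial subunit, 4 and 0 against 0 and 0, and Itgb3, of platelets, 12 and 17 against 13 and 8. Of 10 microglia markers, 1 had an unadjusted p under 0.05, Cx3cr1 with 73 and 95 counts in KI2 and KI3 against 119 and 131. In this list 4 log2 fold changes were above 0 and 6 below, with a median of -0.04. Of 8 blood markers 3 had an unadjusted p under 0.05, Hbb-bt, Hba-a2 and Alas2, all lower in cKI f/+. Both cKI f/+ libraries summed below both WT libraries, at 47.1 and 45.6 against 49.8 and 51.1 CPM for microglia markers. For blood markers the sums were 490.6 and 367.3 against 492.5 and 523 CPM.

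Among collagens that form no fibril, Col23a1, which spans the cell membrane, had 74 and 78 counts in KI2 and KI3 against 53 and 50. The libraries of each genotype nearly coincided, and the log2 fold change was 0.53 (SE 0.225, adjusted p = 0.969 in edgeR). Col17a1, also a membrane collagen, had 4 and 14 counts against 17 and 14, a log2 fold change of -0.81 (95% interval -2.09 to 0.47) that KI2 carried. Col9a3, a chain of type IX collagen that coats type II fibrils, had 460 and 409 counts in KI2 and KI3 against 380 and 387, a log2 fold change of 0.15 (95% interval -0.11 to 0.42). Itgbl1, a secreted protein related to integrin beta chains, had 23 and 17 counts against 34 and 25 (log2 fold change -0.58). Col16a1, a collagen that also binds fibrils, had 294 and 254 counts against 211 and 229 (log2 fold change 0.29, 95% interval -0.04 to 0.62). In the 37 tested members that no cell list holds, 25 log2 fold changes were above 0 and the median was 0.14. The 15 members that were not tested had at most 14 counts in any library, and 3 of them had 3 counts or fewer in all 4. Among them Col4a3, a chain of the type IV network of kidney and lung, had 0 and 1 counts in KI2 and KI3 against 13 and 4. Reads of overlapping genes were a further limit, since 25 members share exon bases with another annotated gene and the strand setting of the counting is not given in the sources used here. Among the members at an unadjusted p under 0.05 these were Col3a1 (with Gm47302), Col5a1 (with 2810430I11Rik and Gm13372) and Itgb4 (with B230344G16Rik).

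Genes that work with the members gave 0 calls in each of 5 lists. Of 14 other basement membrane and matrix genes, all were tested, 11 had a log2 fold change above 0 and none an unadjusted p under 0.05, with a median of 0.09. Of 25 genes that make, fold, cut or crosslink collagen 23 were tested, with a median of 0.05, and 1 had an unadjusted p under 0.05, the lysyl oxidase Loxl2, lower in cKI f/+ with 43 and 44 counts against 69 and 67 (log2 fold change -0.67, adjusted p = 0.969 in edgeR). Serpinh1, the chaperone of fibrillar procollagen, had 2909 and 3444 counts in KI2 and KI3 against 2675 and 3172, and its genotypes overlapped. Of 18 tested integrin adaptors none had an unadjusted p under 0.05, and the 13 genes of the dystroglycan pathway, the other main laminin receptor, had a median log2 fold change of 0.05. Of 10 non-integrin matrix receptors none had an unadjusted p under 0.05, and Adgrg1, the receptor of type III collagen on neural progenitors, had 7708 and 8858 counts in KI2 and KI3 against 7988 and 7826.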

How the data were processed

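The authors deposited raw counts, the number of reads counted per gene and library without normalization, for E15 cortex of 2 cKI f/+ and 2 WT libraries. Their table also holds the authors' own comparison (means, fold changes and p-values), which was not used. The submitters' processing notes name Bowtie2 2.2.3, TopHat2 2.0.12 and HTSeq 0.6.0, with no role or order, and the build mm9, but the table places genes by GRCm38: 26378 of 26433 gene IDs were found in GENCODE M21, where 24486 sit at identical coordinates. The table's columns could be tied to a genotype by name, but KI3 and WT1 carry no number that a label of their genotype has.

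Counts of all genes were filtered with filterByExpr, normalized by TMM and tested with edgeR 4.0.16 in R 4.3.3 by quasi-likelihood F tests, with Benjamini-Hochberg adjusted p-values over 15786 genes, a threshold of 0.05 and a biological coefficient of variation of 8.72%. The standard error was the size of the log2 fold change divided by the square root of F. Levels are CPM of raw library size unless called TMM-normalized. Libraries were called separate, or not overlapping, on TMM-normalized CPM. With 2 libraries per genotype the precision is low, and genes of few counts carry wide intervals. Scripts were tested on simulated data. Exon overlaps come from GENCODE M21.

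The members and gene lists were chosen with earlier results of these data known. Named genes were all members of the progenitor, vascular and fibroblast lists, laminin chains, integrin beta subunits, the 10 highest members per kilobase, members at an unadjusted p under 0.05, and the 5 largest increases and 5 largest decreases among separate members. Partner genes were named at an unadjusted p under 0.05. A few results for single genes are not reported here. Col11a1, Col24a1, Col27a1, Col5a3, Col16a1, Col4a3, Itga3, Itga5, Itga4, Itga2b, Serpinh1, Adgrg1, Foxc1, the scarce meningeal markers and the mural markers other than Rgs5 fall outside this rule, picked once their values had been seen. Each library was left out in turn, and other settings tried were DESeq2 1.42.0, the likelihood ratio test of edgeR, 3 further scalings, 2 further count filters, and autosomes alone. The length of the longest protein coding transcript was added after seeing the data.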

Additional observations from a re-analysis of the deposited data

How the results depend on the processing

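Depth limited the scarce members: with 2 libraries per genotype, intervals of genes under 1 CPM spanned several-fold differences. Under the settings that kept all 4 libraries, each named member and list median kept its direction wherever it was tested, and no member was called except with edgeR's likelihood ratio test, which called 2 (Col1a1 and Col1a2, adjusted p = 0.00295 and 0.0445 after Benjamini-Hochberg adjustment). At an unadjusted p under 0.05 the count of members ranged from 6 of 83 (DESeq2) to 11 of 83 (every gene with at least 1 count). Of all 26433 genes, 334 and 874 were under 0.05 in these settings, against 726 of 15786 in the main fit. Members tested ranged from 58 (at least 10 counts in every library) to 83, and from 69 to 72 with a library left out. Counts of members are therefore not directly comparable between settings. With each library left out in turn, 0 to 2 members were called and 6 to 10 had an unadjusted p under 0.05. The median log2 fold change then ranged from 0.043 to 0.11 over the members, from -0.12 to 0.057 in the progenitor list, from -0.051 to 0.043 in the vascular list and from 0.35 to 0.42 in the fibroblast list. In these fits 16 of 39 named members turned direction. The ranges of log2 fold change were -0.14 to 0.048 for Col4a2, -0.17 to 0.038 for Itga1, -0.091 to 0.13 for Itgav, -0.29 to 0.13 for Itgb5, -0.28 to 0.50 for Lama3, -0.099 to 0.057 for Lamb1, -0.12 to 0.18 for Lamc1, -0.010 to 0.067 for Lamc3 and -0.22 to 0.15 for Col12a1. They were -0.15 to 0.69 for Col6a3, -0.40 to 0.070 for Itgb8, -0.098 to 0.052 for Col4a1, -0.19 to 0.11 for Itgb1, -0.088 to 0.56 for Lamb3, -0.20 to 0.069 for Col15a1 and -0.0077 to 0.30 for Lama5. The cause was not tested. No paired analysis was possible because the labels do not say which cKI f/+ and WT libraries, if any, form a pair.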
